A study of Mus musculus with 2 samples.

Results

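The genes described here are histone chaperones that serve replication-coupled chromatin assembly, together with Cenpa, which encodes the centromeric variant of histone H3. They were chosen by name: Chaf1a, Chaf1b, Asf1a, Asf1b, Nasp, Hat1, Rbbp4, Rbbp7 and Cenpa. A probe set, the group of oligonucleotides that reads 1 transcript on an Affymetrix array, was taken where the platform annotation gave it exactly 1 gene symbol and that symbol was one of these 9. Of the 9 genes, 8 were found, read by 13 probe sets, among 12394 genes named in this way. Chaf1a is not analysed here, since the annotation used gives no probe set its symbol alone. The list was drawn up with the ratios of these same arrays already known, so the values below describe the members and support no claim about them.

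RNA came from NIH 3T3 cells, an immortalised mouse embryonic fibroblast line, 48 hours after transfection with Lipofectamine. One culture (ATCE1-C-del) received the plasmid pCMV-HA-ATCE1-C-del (also written pHA-CMV-ATCE1-C-del) for ATCE1 lacking its C-terminus, which the study describes as its nuclear form, and the other (empty vector) received pCMV-HA without an insert. ATCE1, now named Creb3l4, belongs to the CREB family of leucine zipper DNA-binding regulators. The comparison asks which transcripts differ in abundance when that form is expressed. There was 1 array per culture, so differences are given without a replicate error and without a test. Each array read a whole culture, in which more cells expressing a gene and more RNA per cell cannot be told apart. Where a pair of signals is given below, ATCE1-C-del comes first.

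The arrays were deposited as linear MAS5 signals, whose trimmed mean was 250.1 on each. A signal at or above the median of its array (77.5 with the ATCE1 plasmid and 75.9 without) was taken as measured, a rule used in place of detection calls, which were not used here. By that floor, 6807 genes were measured on at least 1 array. The middle 95% of their log2 ratios, ATCE1-C-del over empty vector, ran from -0.48 to 0.45, with a median of -0.01. Between the 2 brightest probe sets of 1 gene, over 2451 genes, a log2 ratio carried an SD of 0.20, and a difference between 2 such ratios an SD of 0.28. This is the only spread the arrays hold, and it leaves out the variation between cultures. Creb3l4 itself lay under the floor on both arrays, at 18.0 with ATCE1-C-del against 20.7 with empty vector, so its probe set does not check which culture held the insert. All 8 fibroblast markers examined, Col1a1, Col1a2, Col3a1, Vim, Fn1, Pdgfrb, Thy1 and S100a4, were above the floor on both arrays. None of the 6 epithelial, 5 endothelial and 5 muscle markers reached it, and 2 of 6 macrophage markers (Cd14 and Cd68) and 1 of 3 adipocyte markers (Lpl) did. Summed over its list, the signal of the macrophage markers was 358.2 on the ATCE1-C-del array against 285.7 on the other, and that of the adipocyte markers 475.8 against 611.4. Their part in the results below was not tested.

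When DNA is copied, nucleosomes are taken apart ahead of the fork and rebuilt behind it from old and newly made histones. New histone H4 is acetylated by the Hat1 holoenzyme in the cytoplasm, Nasp shields and stores H3-H4 dimers, Asf1 hands them on, and chromatin assembly factor 1 (CAF-1, made of Chaf1a, Chaf1b and Rbbp4) deposits them on DNA held by the sliding clamp PCNA. Cenpa replaces H3 at the centromere through a separate route that is not tied to the fork, and it marks where the kinetochore forms. In cycling cells several of these genes are expressed in step with S phase or G2.

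The promoters of 4 members are shown because these genes span the range of ratios given below: Chaf1b, Cenpa and Asf1b had the highest log2 ratios and Asf1a, the paralogue of Asf1b, the lowest. Each is the 250 bases before the RefSeq start of the gene in GRCm38.p6, written 5′ to 3′ on the strand of the gene. The windows are chr16:93883651-93883900 (+ strand) for Chaf1b, chr5:30666636-30666885 (+ strand) for Cenpa, chr8:83955444-83955693 (+ strand) for Asf1b and chr10:53596711-53596960 (+ strand) for Asf1a. Capitals mark every match, on either strand, to the words searched. The CCAAT box was searched by its own letters and the GC box as GGGCGG. The full CRE, the site of CREB proteins, was searched as TGACGTCA, and its short form, the start of that word, as TGACG. The cell cycle homology region (CHR) was searched as TTTGAA and the E2F-type site as each of the words TTTCCCGC and TTTGGCGC and TTTCGCGC and TTTGCCGC. Overlapping matches run together, and a full CRE also holds the short form on both strands.
Chaf1b: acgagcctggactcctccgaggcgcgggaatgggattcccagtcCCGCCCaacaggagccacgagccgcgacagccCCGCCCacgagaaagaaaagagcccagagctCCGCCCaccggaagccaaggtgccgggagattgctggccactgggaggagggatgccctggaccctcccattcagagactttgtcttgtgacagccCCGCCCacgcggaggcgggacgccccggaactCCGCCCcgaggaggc
Cenpa: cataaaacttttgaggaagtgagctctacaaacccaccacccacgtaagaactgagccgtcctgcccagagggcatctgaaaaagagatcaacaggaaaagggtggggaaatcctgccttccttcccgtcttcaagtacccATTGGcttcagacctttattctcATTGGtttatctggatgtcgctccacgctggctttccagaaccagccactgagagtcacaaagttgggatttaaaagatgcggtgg
Asf1b: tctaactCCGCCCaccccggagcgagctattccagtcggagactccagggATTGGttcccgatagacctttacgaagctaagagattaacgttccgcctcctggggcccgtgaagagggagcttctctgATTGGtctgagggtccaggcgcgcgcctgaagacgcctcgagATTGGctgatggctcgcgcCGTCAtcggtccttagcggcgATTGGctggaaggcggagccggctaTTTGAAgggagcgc
Asf1a: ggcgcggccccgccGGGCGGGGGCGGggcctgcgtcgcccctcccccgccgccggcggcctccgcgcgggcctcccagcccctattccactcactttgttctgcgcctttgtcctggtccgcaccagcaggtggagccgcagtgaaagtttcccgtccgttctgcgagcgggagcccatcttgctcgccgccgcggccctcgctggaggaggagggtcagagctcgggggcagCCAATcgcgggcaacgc

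The promoter of Asf1b held 4 CCAAT boxes, a short CRE 60 bases before the start, a CHR 14 bases before it, and 1 GC box 243 bases before it. The promoter of Cenpa held 2 CCAAT boxes, 109 and 86 bases before the start, and no other of these words. That of Chaf1b held 5 GC boxes and no CCAAT box, and that of Asf1a held 2 adjoining GC boxes and 1 CCAAT box 17 bases before the start. All 9 members, Chaf1a included, were in the promoter table. A CCAAT box was present in 8 of the 9, with Chaf1b the exception, where 33.8% of all 32851 promoters of this length and 35.5% of the 7265 promoters of measured genes held one. A short CRE was present in 4 of 9 (Asf1b, Chaf1a, Nasp and Rbbp7), against 17.8% of all promoters and 28.6% of those of measured genes. A CHR was present in 2 of 9 (Asf1b and Nasp), against 16% and 10.4%, and a GC box in 6 of 9, against 32.7% and 61.1%. Neither the full CRE nor an E2F-type word was found in these windows of the 9 members. Of all promoters, 1.55% held a full CRE and 1.86% an E2F-type word, and of those of measured genes 2.66% and 3.5%. Only exact matches to the words listed were counted, so sites that differ by a letter were not looked for. These matches describe the letters of the windows, and matches outside them were not looked for.

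All 8 measured members had a higher signal with ATCE1-C-del than with empty vector, by 1.03-fold to 1.55-fold. The median log2 ratio was 0.33 (1.26-fold), where the median over all measured genes was -0.01. Above 0 on the log2 scale lay 48.7% of all measured genes. At 1.5-fold, 2 of 8 members were higher and 0 lower, where 0.94% of measured genes were higher and 1.07% lower at that size. At 1.2-fold, 5 of 8 members were higher, where 9.42% of measured genes were, and at 2-fold 0 of 8, where 0.0735% were. By probe set, 11 of the 13 were measured, each above the floor on both arrays, and all 11 were higher with ATCE1-C-del, where 50.5% of all measured probe sets were. The other 2, one for Nasp and one for Asf1a, lay under the floor on both arrays.

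**Figure D1:**
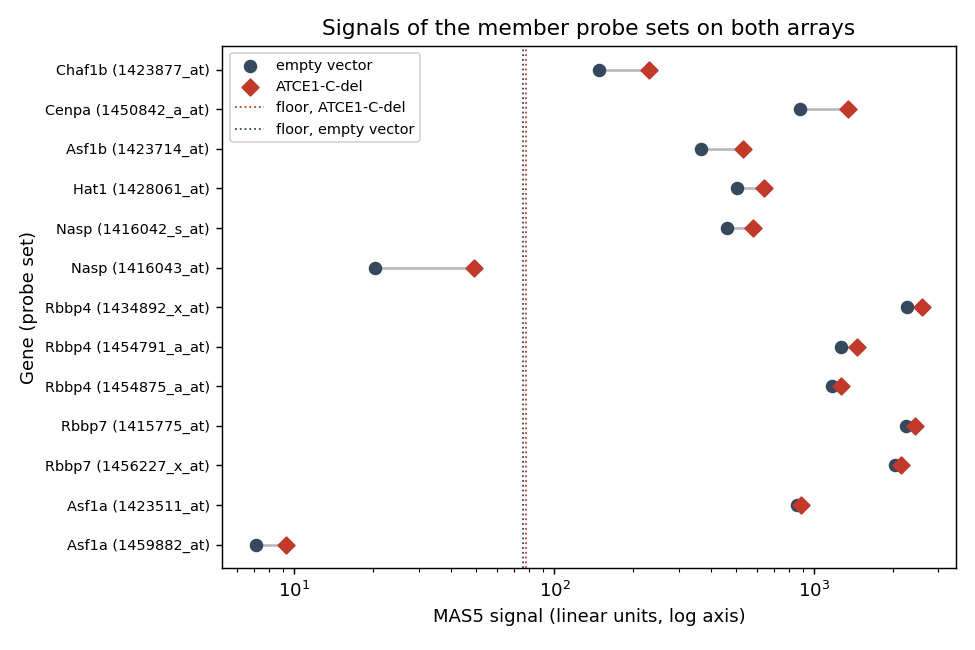
MAS5 signal (x axis, log scale, linear units) of each of the 13 member probe sets (y axis) with empty vector (circles) and ATCE1-C-del (diamonds), 1 array each, with the floor of each array as a dotted line. The diamond lies to the right of the circle in every row, and the second probe sets of Nasp and Asf1a lie left of the floors of 77.5 and 75.9.

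Of the 8 members, Chaf1b had the highest ratio and Asf1a the lowest. Chaf1b encodes the middle subunit of CAF-1, a WD-repeat protein that binds H3-H4 together with the large subunit. Its only probe set (1423877_at) read 230.8 with ATCE1-C-del against 148.9 with empty vector. That was 1.55-fold higher, a log2 ratio of 0.63, and ranked 43rd from the top of the 6807 measured genes. Measured genes were split by mean signal into 4 level classes of equal size. Among the 1702 genes of its class, the second from the bottom, 17 genes, Chaf1b included, were at least 1.5-fold higher, and the middle 95% of ratios ran from -0.47 to 0.45. Its level with empty vector was the nearest to the floor of the 8 members.

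Asf1a and Asf1b are paralogues that bind an H3-H4 dimer and pass it to CAF-1 or to the HIRA complex. Asf1b is known for expression that follows proliferation, whereas Asf1a is expressed more evenly. The probe set of Asf1b (1423714_at) read 530.4 with ATCE1-C-del against 366.1 with empty vector, 1.45-fold higher and a log2 ratio of 0.53, which was rank 89. In its level class, the third from the bottom, the middle 95% of ratios ran from -0.48 to 0.39. The measured probe set of Asf1a (1423511_at) read 886.7 and 857.6, 1.03-fold higher and a log2 ratio of 0.05, rank 2643 and close to the middle of all genes. The ratio of Asf1b exceeded that of Asf1a by 0.49 on the log2 scale, or 1.73 times the SD of 0.28 for a difference between 2 probe sets of 1 gene. The second probe set of Asf1a (1459882_at) read 9.30 and 7.10, under both floors, and gives no ratio.

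Rbbp4 and Rbbp7 are close WD-repeat paralogues that hold histone H4. Rbbp4 is the small subunit of CAF-1, Rbbp7 works with Hat1, and both also sit in deacetylase, NuRD and Polycomb complexes. The 3 probe sets of Rbbp4 read 2596.7 against 2263.1 (1434892_x_at), 1452.0 against 1270.2 (1454791_a_at) and 1268.0 against 1168.3 (1454875_a_at), ATCE1-C-del given first. The brightest stood for the gene, at 1.15-fold higher and a log2 ratio of 0.20, and the others lay at 0.19 and 0.12. The SD over the 3 was 0.04. The 2 probe sets of Rbbp7 read 2439.6 against 2258.2 (1415775_at) and 2150.5 against 2040.5 (1456227_x_at), which are log2 ratios of 0.11 and 0.08. All 5 probe sets were higher with ATCE1-C-del by less than 1.2-fold, and the middle 95% of genes in the brightest level class ran from -0.35 to 0.34. By Affymetrix naming, probes of a set ending in _x_at can bind transcripts of other genes, so the 1 such set of each paralogue may share signal with related transcripts.

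Hat1 and Nasp lay between Asf1b and Rbbp4 in ratio. Hat1 encodes the catalytic subunit that acetylates new histone H4. Its probe set (1428061_at) read 638.3 with ATCE1-C-del against 504.7 with empty vector, 1.26-fold higher and a log2 ratio of 0.34, rank 407. Nasp encodes a chaperone that keeps a soluble pool of H3-H4. Its measured probe set (1416042_s_at) read 579.1 and 462.7, 1.25-fold higher and a log2 ratio of 0.32, rank 452. Its other probe set (1416043_at) read 48.9 and 20.4, higher with ATCE1-C-del but under both floors, and gives no ratio. Both genes fell inside the middle 95% of their level class, which ended at 0.39. The ending _s_at marks a set whose probes match more than 1 transcript, and Nasp has no measured set without it.

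Cenpa, the centromeric H3 variant, was the other member past 1.5-fold. Its only probe set (1450842_a_at) read 1348.0 with ATCE1-C-del against 877.6 with empty vector, 1.54-fold higher and a log2 ratio of 0.62, rank 46. In the brightest level class of 1702 genes, where ratios spread least, only 4 genes were at least 1.5-fold higher, and Cenpa was one of them. Chaf1b, Cenpa and Asf1b, 3 of 8 members, lay above the middle 95% of all measured genes, where 2.51% of measured genes did, and also above that of their own level classes. The remaining 5 members lay inside both ranges.

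**Figure D2:**
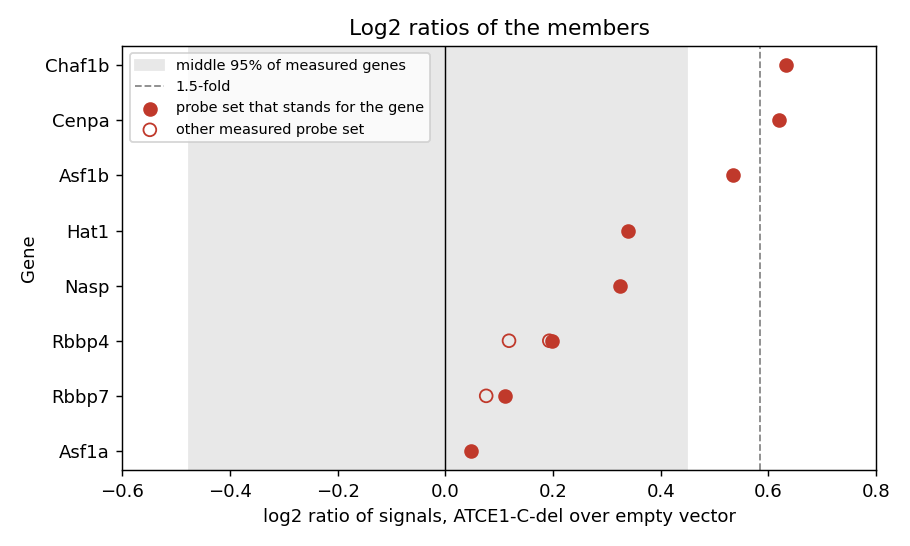
Log2 ratio of signals, ATCE1-C-del over empty vector (x axis), for the 8 measured members (y axis). Filled points are the brightest probe set of each gene, open points its other measured probe sets, and the grey band is the middle 95% of measured genes, -0.48 to 0.45. Chaf1b, Cenpa and Asf1b lie right of the band, and Asf1b lies just left of the dashed line at 1.5-fold.

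The order of the ratios from the top was Chaf1b, Cenpa, Asf1b, Hat1, Nasp, Rbbp4, Rbbp7 and Asf1a. No neighbours in that order differed by more than the SD of 0.28 for a difference between 2 probe sets of 1 gene. The widest gap between neighbours was 0.20, from Asf1b to Hat1. Chaf1b exceeded Hat1 by 0.29 and Nasp by 0.31, and it exceeded Asf1a by 0.58, which is 2.07 times that SD. Cenpa exceeded Asf1a by 0.57. The order of neighbours is therefore not resolved by these arrays.

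**Figure D3:**
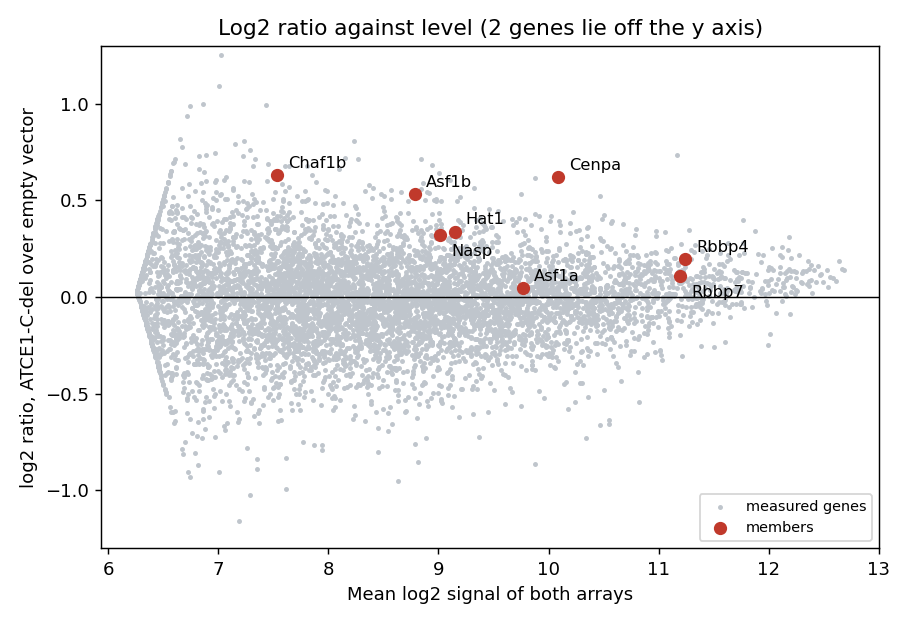
Log2 ratio, ATCE1-C-del over empty vector (y axis), against the mean log2 signal of both arrays (x axis) for 6807 measured genes (grey) and the 8 members (red). The axis leaves out 2 genes. Cenpa stands at the upper edge of the cloud for its level, while Rbbp4, Rbbp7 and Asf1a lie within it.

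By their brightest probe sets, histone chaperones outside the list were mostly higher by small amounts. Of all measured genes, 48.7% were higher and 0.94% at least 1.5-fold higher. Of 18 chaperones measured among 25 listed, 15 were higher and 3 lower (median log2 ratio 0.11), and 1 was past 1.5-fold. That was Mcm2, a helicase subunit that also binds H3-H4, at 0.61, but its other probe set lay at -0.45. Mms22l, a partner of Tonsl that binds new histones behind the fork, was at least 1.47-fold higher, at 111.8 with ATCE1-C-del against 68.2 with empty vector, the latter under the floor. Npm1, the nucleolar chaperone nucleophosmin, lay at 0.24 with its other probe set at 0.11. Ubn1, a subunit of the replication-independent HIRA complex, was 1.45-fold lower, at 87.4 and 126.6, and Hira itself was at least 1.12-fold higher, at 85.0 and 73.3, both near the floor. Set (0.0004), Anp32b (0.01) and Daxx (0.01), counted as higher, were level. Anp32a lay at 0.03, with other probe sets at -0.52 and 0.40. Some other chaperones also had probe sets on both sides of 0. Hira, Set, Anp32b, Daxx and Anp32a were named here after their values were seen.

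Genes that place Cenpa or bind its nucleosome lay on both sides of 0. Of 12 measured among 21 listed, 8 were higher and 4 lower by their brightest probe sets (median log2 ratio 0.11). By those sets, 0 were past 1.5-fold. Cenpn, among the 4 lower, lay at -0.08, with its other probe set at 0.41. Over all measured genes, 48.7% were higher and 0.94% at least 1.5-fold higher. Cenpm (0.35), Cenph (0.35) and Cenpk (0.32), subunits of the constitutive centromere network, were higher, and Cenpx, also of that network, was 1.27-fold lower at 103.2 and 130.7. Mis18a, which licenses the deposition of Cenpa, lay at 0.12 by a set ending in _x_at, with its other probe set at 0.02. Mis18a and Cenpn were added to these names after their values were seen. Hjurp, the chaperone of Cenpa, is not analysed here, since the annotation used gives no probe set its symbol alone. The ratio of Cenpa, 0.62, was higher than that of any of the 12.

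PCNA, which recruits CAF-1, and its loaders were slightly higher by their brightest probe sets. All 7 measured genes were above 0, where 48.7% of all measured genes were. Their median log2 ratio was 0.16, and 0 were past 1.5-fold, where 0.94% of all measured genes were. Chtf18, of an alternative clamp loader, was at least 1.34-fold higher, with the empty vector signal of 54.1 under the floor. Rfc4 (0.18), Rfc5 (0.18) and Rfc3 (0.16), subunits of the main loader, followed. Rfc1, the large subunit of that loader, lay at 0.09, with its other probe sets at 0.03 and -0.25. All 14 measured replication genes were higher by their brightest probe sets, and by those sets 0 were past 1.5-fold. Their median was 0.35, close to the 0.33 of the members. The highest were Lig1 (0.54), which joins Okazaki fragments, and the helicase subunits Mcm4 (0.53), Mcm5 (0.51) and Mcm6 (0.41), the other probe sets of Mcm4 and Mcm6 lying at 0.20 and 0.02. The other probe sets of Mcm7 lay at 0.44, 0.49 and -0.16, against 0.35 for its brightest. Those of Mcm3 lay at 0.65, past 1.5-fold, and at 0.04 and 0.49, against 0.34 for its brightest. That of Fen1 lay at 0.56, against 0.12. Several of these replication genes had been seen to be higher before the list was written.

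The other subunits of the complexes that hold Rbbp4 or Rbbp7 had no common direction. Of 20 measured, 10 were higher and 10 lower (median log2 ratio -0.01), where 48.7% of all measured genes were higher. Mbd3, a NuRD subunit, was 1.58-fold higher, at 343.5 and 216.9, and was the only one past 1.5-fold. Over all measured genes, 0.94% were at least 1.5-fold higher. Chd4, the NuRD remodeller, was 1.33-fold lower with its other probe set level at -0.0041, and Gatad2b, of the same complex, was 1.28-fold lower. Lin37, of the DREAM complex, was 1.27-fold lower. Of 24 histone genes listed, 6 had a probe set to which the annotation gave exactly 1 symbol. Probe sets given more than 1 symbol were not used. Of the 6, 3 were higher and 3 lower, with a median of -0.07. H2az1, the variant H2A.Z, lay at 0.35 with its other probe set at -0.05. H2aw (-0.28), H2aj (-0.16, its other probe set at -0.02) and Macroh2a1 (-0.14) were lower.

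**Figure D4:**
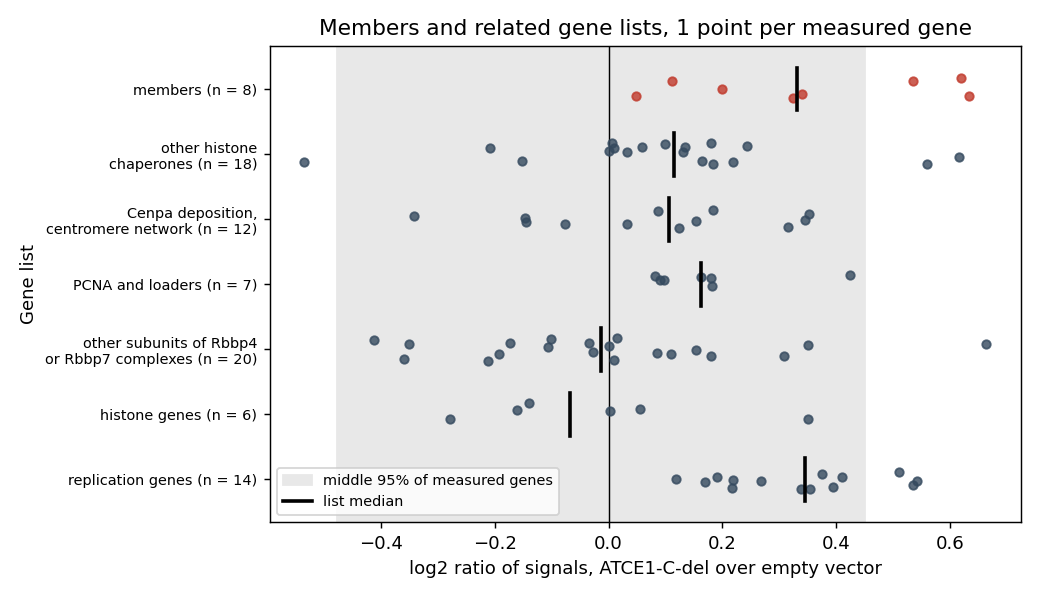
Log2 ratio, ATCE1-C-del over empty vector (x axis), for each measured gene of the members (red) and of 6 related lists (blue), with the list median as a black bar and the middle 95% of measured genes as a grey band. Points are spread vertically at random for legibility. The members, the replication genes and PCNA with its loaders lie wholly right of 0, and the other lists straddle it.

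The direction of the members held under every processing setting tried, whereas the count past 1.5-fold did not. Across all 12 alternatives each measured member stayed above 0, the lowest value being 0.02 for Asf1a with each array divided by its median. Several settings could not change the ratios of most members, so they do not test their direction. A different floor leaves alone a ratio whose signals both stay above it. Probe set choice cannot act on a member with 1 measured probe set. The ratio of Asf1b was thus 0.53 at every floor tried, without a floor and under each probe set choice. It was 0.53 with the signals as deposited, whose trimmed means were already alike. Under the remaining settings it ran from 0.48 to 0.78. The ratio of Chaf1b, the member nearest the floor, was 0.50 when 50 was added to each signal in place of the floor, and that of Cenpa ran from 0.59 to 0.87. With scaling to the 18 hybridisation control probe sets, RNA added before hybridisation, genes above the floor on both arrays moved up alike. The shift had the size of the control median, which was -0.25, so that 85.2% of measured genes were higher, against 48.7% before. The median of all measured genes was then 0.24 and that of the members 0.58, a difference of 0.34 both then and in the main setting. At that scaling 4 of 8 members were past 1.5-fold, where 5.99% of measured genes were. With the floor at the 75th percentile 1 of 7 members was, against 0.244% of measured genes, with 50 added to each signal 1 of 8, against 0.455%, and without probe sets ending in _a_at, _s_at or _x_at 1 of 5, against 0.96%.

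**Figure D5:**
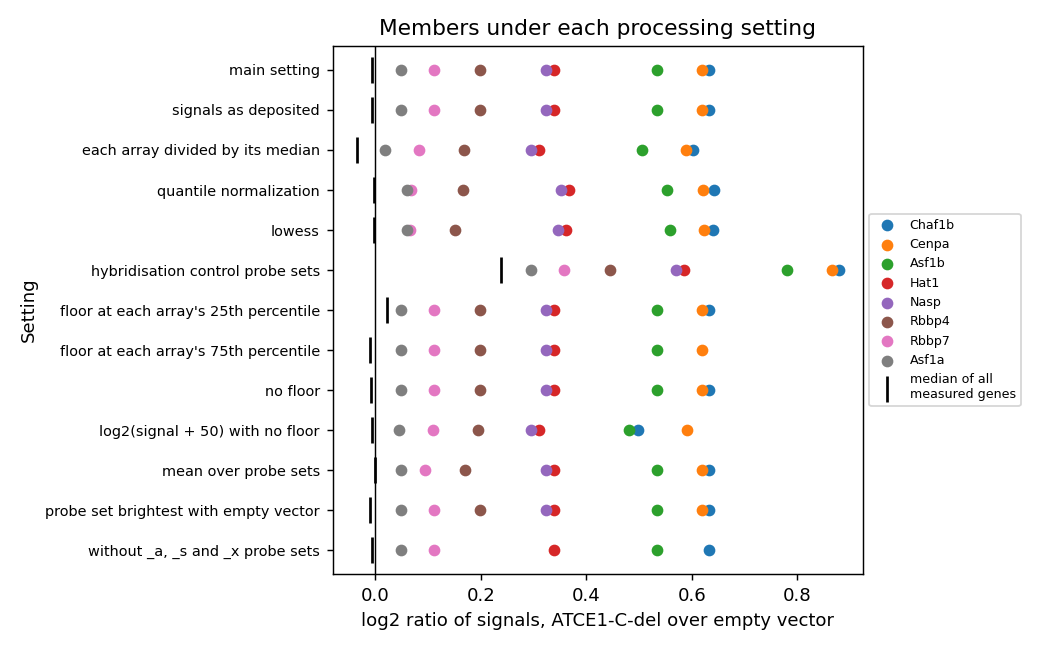
Log2 ratio, ATCE1-C-del over empty vector (x axis), of each member (coloured points) and the median of all measured genes (black bars) under the main setting and 12 alternatives (y axis). Every point lies right of 0 and right of the bar of its row. Chaf1b is absent with the floor at the 75th percentile, and Cenpa, Nasp and Rbbp4 are absent without probe sets ending in _a_at, _s_at or _x_at.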

How the data were processed

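The authors deposited 1 intensity value per probe set and array, a linear signal that MAS5 produced according to the submitters' processing notes. Its version, its target value and the detection calls were not given in the sources used here. There were 22690 probe sets per array. The 64 controls among them entered the trimmed mean but were left out of the floor and of the measured probe sets. A table of the platform's annotation named exactly 1 gene for 20393 probe sets, more than 1 gene for 691 and no gene for 1606. Matching Entrez IDs to RefSeq changed 0 symbols.

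Each array was divided by its mean after trimming 2% at each end, signals under the median of the array were raised to it, and the log2 ratio between the arrays (ATCE1-C-del over empty vector) followed. Where 1 array was under its floor, the fold is a lower bound. Each gene was represented by its brightest probe set over both arrays. With 1 array per group no test was possible, so genes were counted by size, 1.5-fold. Arrays being 2 in number limits the precision. Members and lists were chosen with earlier results of these data known. The names given are all members, Creb3l4 and, from each of the 6 other lists, up to 4 measured genes with the largest absolute ratio. Hira, Set, Anp32a, Anp32b, Daxx, Mis18a, Cenpn, Rfc1, Mcm3, Mcm7 and Fen1 were added after their values were seen. Hjurp was added as a gene not analysed, and the fibroblast markers and the measured markers of other cell types as a check of the cells. The scripts were checked on simulated data. Alternatives covered scaling, floor, log scale, fold and probe set choice. Promoters came from RefSeq (GRCm38.p6), 250 bases before each start. Protein sequences were not analysed here. Python 3.11.15, numpy 2.4.6, pandas 2.3.3, statsmodels 0.14.6 and matplotlib 3.10.9 were used.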

Additional observations from a re-analysis of the deposited data

How the results depend on the processing

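No paired analysis was possible because each group had 1 array, and leaving out a replicate was not possible for the same reason. The count of members at least 1.5-fold higher was 2 in the main setting, where 0.94% of measured genes were. With the floor at the 75th percentile of each array it was 1, against 0.244% of measured genes (Chaf1b then lay under it on both). It was 1 with log2(signal + 50), against 0.455%, and 1 without probe sets ending in _a_at, _s_at or _x_at, against 0.96%. With scaling to the hybridisation controls it was 4, against 5.99%. At 1.2-fold the count was 5, against 9.42% of measured genes, and at 2-fold 0, against 0.0735%. Without the probe sets with those endings 5 members were left, and all 5 were higher. Scaled to the hybridisation controls, whose 18 probe sets had a median log2 ratio of -0.25 and read lower with ATCE1-C-del in 17 cases, the median log2 ratio of the members was 0.58, of the replication genes 0.59, of PCNA and its loaders 0.41, of the other chaperones 0.36, of the centromere network 0.35, of the other subunits of Rbbp4 and Rbbp7 complexes 0.23 and of the histone genes 0.18, the last 2 turning from below to above 0. These shifts follow from the scaling, which moves alike the ratios of all genes above the floor on both arrays. The count of members at least 1.5-fold lower was 0 in every setting, where 1.07% of measured genes were in the main setting. Several of these settings could not change the ratios of most members. Signal near the floor limits Chaf1b, and a single measured probe set limits Chaf1b, Asf1a, Asf1b, Nasp, Hat1 and Cenpa.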
